A study of Homo sapiens with 4 samples.

Results

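NF-κB is a family of transcription factors held in check by inhibitors that its own activity induces. The genes described are 10 of the 61541 genes in the deposited table, the 5 NF-κB subunits RELA, RELB, REL, NFKB1 and NFKB2 and the 5 inhibitors NFKBIA, NFKBIB, NFKBIE, NFKBIZ and TNFAIP3. They were chosen by name, and their rows were found by matching Ensembl gene IDs to symbols. All 10 passed the filter on low counts and were among the 16863 genes tested. RNA was sequenced from MHCC97H, an established human hepatocellular carcinoma (HCC) cell line. There were 2 libraries of control cells (shCon) and 2 libraries of cells carrying an shRNA against UBXN1 (shUBXN1). By the study's methods the shRNAs were delivered with the lentiviral vector pLKO.1 and the control hairpin was shRFP, and the labels do not say which UBXN1 hairpin the sequenced cells carried. The labels number the replicates but do not call them separate cultures, so the p-values measure the spread between these libraries, which may be technical.

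NF-κB acts as dimers of proteins that share a Rel homology region. RELA (p65), RELB and REL carry transactivation domains, whereas NFKB1 and NFKB2 encode the precursors p105 and p100, which are processed to the DNA-binding subunits p50 and p52. IκB proteins hold the dimers in the cytoplasm until the IKK complex marks the inhibitors for degradation. Several of the inhibitor genes are themselves NF-κB targets, which closes a negative feedback loop, and hepatocytes use this pathway in the response to TNF and in the acute phase.

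Because NF-κB binds κB sites, the promoters were searched for the 10-letter κB consensus, which begins with a run of G and ends with a run of C. The RefSeq promoter windows of build GRCh38.p14 run from 250 bases before to 50 bases after each annotated start, and 8 of the 10 genes, all but RELB and NFKBIE, were matched to at least 1 window. A match on either strand was present for 7 of these 8 genes (87.5%), against 3619 of 27305 genes with a window (13.3%). Counted per window, 9 of 14 (64.3%) held a match, against 11.3% of all windows. Among genes tested here whose symbol had a window, 1979 held a match and 9697 did not. The 10 genes were chosen by name and several are known NF-κB targets, so these shares describe the choice and are no result. One site is shown for each of the 7 genes, the match nearest to a start site, and where matches overlapped, the one on the gene's own strand. Sequences are written 5′ to 3′ on the gene's strand, with the κB match in capitals.
REL (chr2:60881517-60881546, plus strand): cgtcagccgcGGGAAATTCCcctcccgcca
NFKB1 (chr4:102501300-102501329, plus strand): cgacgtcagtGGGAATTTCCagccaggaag
NFKB2 (chr10:102395674-102395703, plus strand): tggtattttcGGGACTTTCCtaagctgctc
NFKBIA (chr14:35404811-35404840, minus strand): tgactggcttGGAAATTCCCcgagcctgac
NFKBIB (chr19:38899931-38899960, plus strand): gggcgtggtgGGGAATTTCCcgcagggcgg
NFKBIZ (chr3:101827757-101827786, plus strand): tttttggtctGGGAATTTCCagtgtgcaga
TNFAIP3 (chr6:137867194-137867223, plus strand): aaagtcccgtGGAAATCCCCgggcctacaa

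NFKB1, NFKBIB and NFKBIZ shared the same 10 letters on the gene's strand, whereas the matches shown for NFKBIA and TNFAIP3 lay on the opposite strand. TNFAIP3 held 2 matches, which began at positions -67 and -55 relative to the start site, and NFKB2 held matches at 2 of its 3 annotated starts. Neither window of RELA held the consensus, which says only that these letters are not in those windows. A match is a description of the sequence and not evidence of binding.

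**Figure D1:**
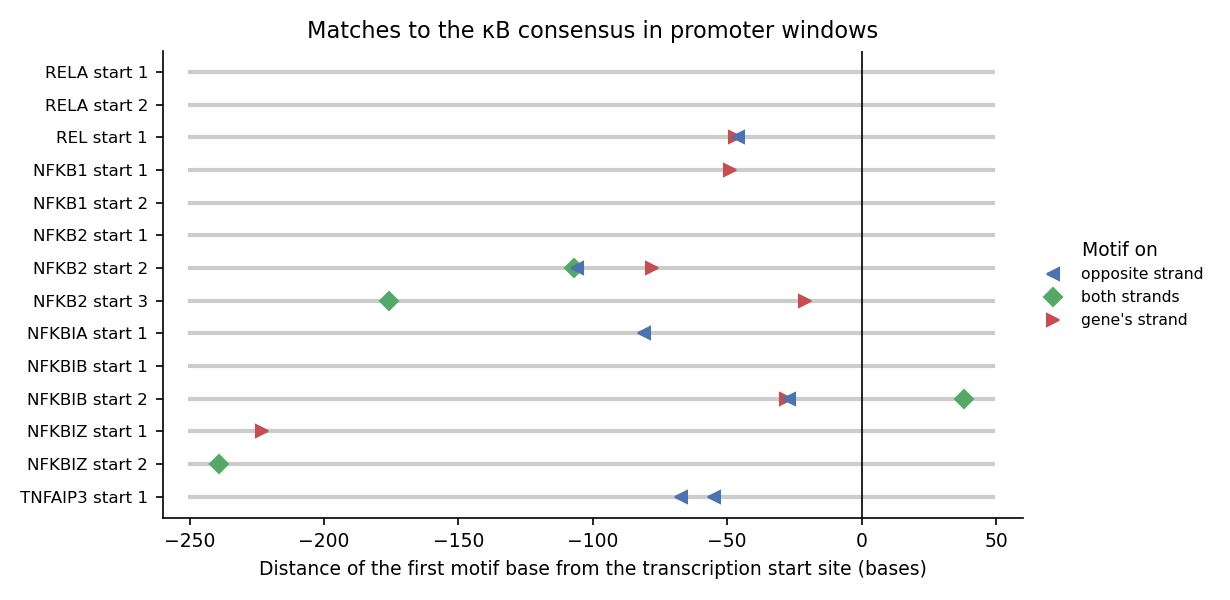
Position of each match to the κB consensus (symbols, coloured by strand) in the 14 promoter windows of 8 genes, in bases from the annotated start site at 0, with each window drawn as a grey line. Matches lie at -21 to -107 bases from a start for REL, NFKB1, NFKBIA and TNFAIP3 and for most of those of NFKB2 and NFKBIB, and neither RELA window holds one.

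The libraries held 23373700 to 27380508 counts, and 5.28% to 8.27% of these lay on the mitochondrial genome, the higher shares in shUBXN1 (7.43% and 8.27%). UBXN1, the targeted gene, had 1788 and 1817 counts in shCon and 416 and 433 in shUBXN1, so that 24.5% of the control level was left (log2 fold change -2.03 ± 0.0963, standard error, edgeR quasi-likelihood test, Benjamini-Hochberg adjusted p = 9.98e-10). Of 10 hepatocyte and HCC markers, 7, including KRT8, KRT18 and HNF4A, were above 1 TPM in every library. The 10 summed to 5394 and 5444 TPM in shCon and 4637 and 5053 TPM in shUBXN1. Nearly all of this was KRT8 (4047 and 4059 against 2993 and 3239 TPM) and KRT18 (1283 and 1320 against 1595 and 1767 TPM). The sum therefore says little about the other markers. GPC3 was at 0 in all libraries, and ALB was low, at 14.8 to 16.0 TPM in shCon and 3.99 to 4.21 TPM in shUBXN1. Like ALB and KRT8, HNF4A, APOB and TTR fell in shUBXN1, TTR from 3.516 and 3.465 to 0.5309 and 0.3126 TPM. KRT18 and SERPINA1 rose, the latter from 10.27 and 10.95 to 14.53 and 14.57 TPM. AFP and APOA1 overlapped between groups. Among leukocyte markers CD3E was at 0 and PTPRC did not exceed 0.0642 TPM. CD68, the most abundant, was at 98.4 and 102 TPM in shCon and lower, at 92.7 and 83.2 TPM, in shUBXN1. CD79A was at 20.6 and 26.4 TPM in shCon and higher, at 58.2 and 55.1 TPM, in shUBXN1. The 4 leukocyte markers summed to 119 and 129 TPM in shCon and 151 and 138 TPM in shUBXN1, and the part of these markers and of the mitochondrial share in the results was not tested. The endothelial markers summed to 9.90 and 10.1 TPM in shCon and 14.0 and 12.6 TPM in shUBXN1, and the fibroblast markers to at most 1.03 TPM. Nearly all of the endothelial sum was PECAM1 (9.97 and 9.61 against 13.7 and 12.4 TPM). VWF was near 0 and rose, whereas CDH5 went from 3 and 6 counts to 0 in both shUBXN1 libraries. Of the fibroblast markers, COL1A1 rose from 10 and 4 to 58 and 59 counts and PDGFRB rose at a few counts. COL3A1 fell from 7 and 15 to 4 and 3 counts. All levels are relative to the RNA of the library, so a change in total RNA per cell would not be seen.

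UBXN1-knockdown was accompanied by higher expression of 4 of the 5 inhibitors and by small shifts of the subunits. TNFAIP3 rose 2.67-fold, NFKBIA and NFKBIB each rose 1.61-fold, and NFKBIZ fell to 0.435 of the control level. At an adjusted p under 0.05, 7 of the 10 genes were called higher in the knockdown, 2 (NFKB1 and NFKBIZ) were called lower, and REL did not pass. These shares stand against 28.0% of all genes tested called higher and 28.2% called lower, or 56.2% in either direction. At a fold change of 2 with an unadjusted p under 0.05, the thresholds stated in the study's methods, TNFAIP3 was the 1 gene called higher and NFKBIZ the 1 called lower, where 11.8% and 6.09% of all genes passed. The libraries of the 2 groups did not overlap for any of the 10 genes, which was true of 78.0% of all genes tested. The median log2 fold change was 0.69 for the 5 inhibitors and 0.31 for the 5 subunits, against 0.016 for all genes. In size, however, the median change of the 10 genes (0.42) did not exceed that of all genes (0.44). Without the first shCon library fewer of the 10 genes were called higher, and so were fewer of all genes tested. When the dependence of counts on transcript GC content was removed per library, 3 were called higher (NFKBIA, NFKBIB and TNFAIP3). In that fit 3831 of all genes tested were called higher, against 4727 in the reported fit.

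To compare levels between genes, counts were divided by the deposited gene length and scaled to the same sum in each library (TPM). In shCon RELA was the most abundant of the 10 genes at 71.1 ± 2.45 TPM (SD, n = 2), followed by NFKBIA at 58.0 ± 0.725 TPM, NFKBIB at 40.4 ± 0.238 TPM, NFKB1 at 34.2 ± 0.579 TPM and NFKB2 at 25.2 ± 1.52 TPM. RELB, NFKBIZ and NFKBIE lay between 8.41 and 13.2 TPM, TNFAIP3 at 6.13 ± 0.374 TPM and REL at 2.28 ± 0.296 TPM. No neighbours in this order overlapped between their replicates in shCon. In shUBXN1 the order changed. NFKBIA, at 97.2 ± 1.69 TPM, stood above RELA, at 91.5 ± 3.54 TPM, and NFKB2, at 33.6 ± 1.08 TPM, stood above NFKB1, at 30.9 ± 0.286 TPM. TNFAIP3, at 17.0 ± 0.822 TPM, reached the range of RELB, at 16.8 ± 0.719 TPM, and these 2 genes overlapped between replicates. NFKBIZ, at 5.20 ± 0.382 TPM, moved below NFKBIE and TNFAIP3. The low level of REL depends on its deposited length of 11255 bases, the longest of the 10.

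**Figure D2:**
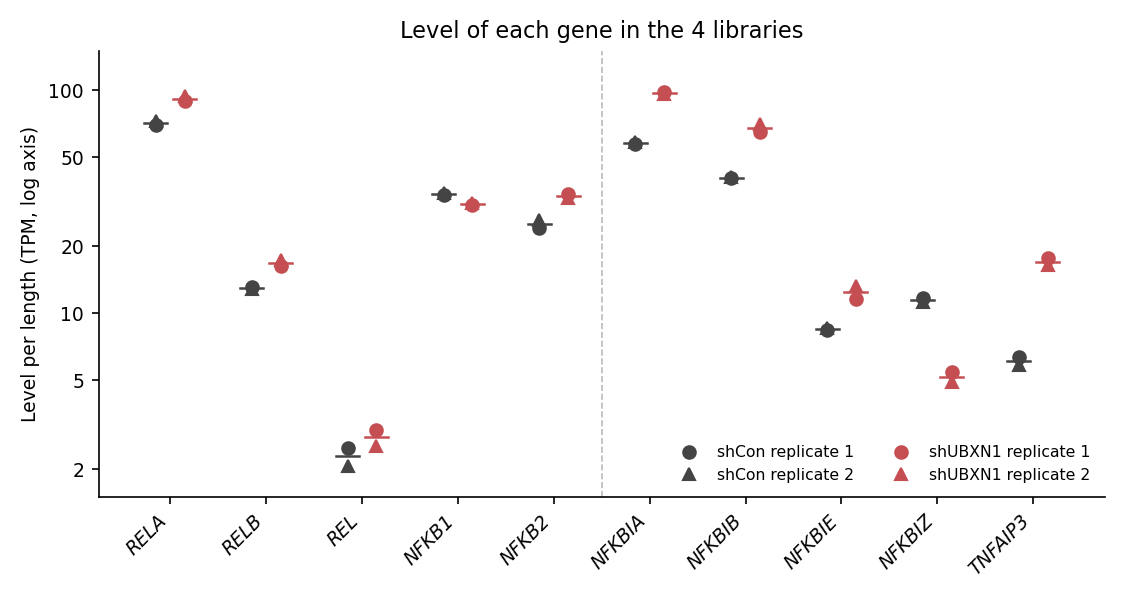
Level per length (TPM, log axis) of the 5 subunits, left of the dashed line, and the 5 inhibitors, right of it, in each of the 2 shCon (dark) and 2 shUBXN1 (red) libraries, with a bar at each group's mean. NFKBIA moves from 58.0 to 97.2 TPM and TNFAIP3 from 6.13 to 17.0 TPM, NFKBIZ drops from 11.5 to 5.20 TPM, and NFKB1 is the only subunit with a lower mean in shUBXN1.

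RELA (ENSG00000173039) lies on the minus strand of chromosome 11 from 65653599 to 65663090 and encodes the main activating subunit of the canonical pathway. In CPM, which are counts scaled to the TMM-adjusted library size, it stood at 85.8 and 92.8 in shCon, against 103 and 118 in shUBXN1. Both knockdown libraries were higher than both controls, by a log2 fold change of 0.31 (95% interval 0.13 to 0.48). The estimate passed the test (edgeR quasi-likelihood test, Benjamini-Hochberg adjusted p = 0.00543), but no longer did so without the first shCon library (0.25, edgeR adjusted p = 0.0658) or after removal of the GC trend (0.16, edgeR adjusted p = 0.236). RELA-DT, a lncRNA gene on the opposite strand, shares 1.89% of its exon bases.

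RELB and NFKB2 encode the RELB:p52 dimer of the alternative pathway, and both are NF-κB targets. NFKB2 (chromosome 10, 102394110 to 102402524, plus strand) was at 37.8 and 42.5 CPM in shCon and 50.6 and 52.1 CPM in shUBXN1, a log2 fold change of 0.35 (95% interval 0.18 to 0.53, edgeR adjusted p = 0.00235). The call was lost without the first shCon library (0.27, edgeR adjusted p = 0.0550) and after removal of the GC trend (0.12, edgeR adjusted p = 0.346). RELB (chromosome 19, 45001461 to 45038192, plus strand) was at 14.7 and 14.8 CPM in shCon and 17.1 and 19.6 CPM in shUBXN1. Its log2 fold change of 0.31 (95% interval 0.062 to 0.56) was close to the threshold (edgeR adjusted p = 0.0335) and was at 0.032 after removal of the GC trend (edgeR adjusted p = 0.858). RELB also lost its call in DESeq2 (adjusted p = 0.126) and in edgeR without either shCon library (0.31 and 0.30, adjusted p = 0.117 and 0.151) or without the second shUBXN1 library (0.20, adjusted p = 0.191). RELB, NFKB2 and RELA are GC-rich, with 64.9%, 62.4% and 57.1% GC in their longest transcripts. NFKBIE (61.0% GC) and NFKBIB (60.5% GC) are too. After removal of the GC trend NFKBIE lost its call, but NFKBIB kept it (0.49, edgeR adjusted p = 0.000329).

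NFKB1 (chromosome 4, 102501330 to 102617302, plus strand), which encodes p105 and through it p50, moved the other way. It was at 67.4 and 71.1 CPM in shCon and at 57.4 and 62.6 CPM in shUBXN1, a log2 fold change of -0.21 (95% interval -0.37 to -0.039, edgeR adjusted p = 0.0358). This small fall passed the test in 5 of 15 alternative fits and lay between -0.29 and -0.12 over all of them. The call was lost with total count scaling (-0.12, edgeR adjusted p = 0.13), without the first or the second shCon library (-0.25 and -0.18, edgeR adjusted p = 0.0694 and 0.283) and without the first shUBXN1 library (-0.15, edgeR adjusted p = 0.110). The longest annotated transcript of NFKB1 is AT-rich for this family (36.0% GC), which need not hold for the transcripts counted. NFKB1 kept a value of -0.22 after removal of the GC trend (edgeR adjusted p = 0.0800).

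REL (chromosome 2, 60881491 to 60931612, plus strand), which encodes c-Rel, a subunit best known from lymphocytes, was at 13.8 and 11.8 CPM in shCon and at 15.6 and 14.3 CPM in shUBXN1. Its log2 fold change of 0.22 (95% interval -0.051 to 0.49) did not pass the test (edgeR adjusted p = 0.154), nor did it in any of the 15 alternative fits. The annotated lncRNA gene ENSG00000267520 lies on the same strand and shares 33.3% of the exon bases of REL. That gene had 427 and 377 counts in shCon and 413 and 313 in shUBXN1, close to the 367, 277, 385 and 334 counts of REL, so the level of REL is uncertain.

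**Figure D3:**
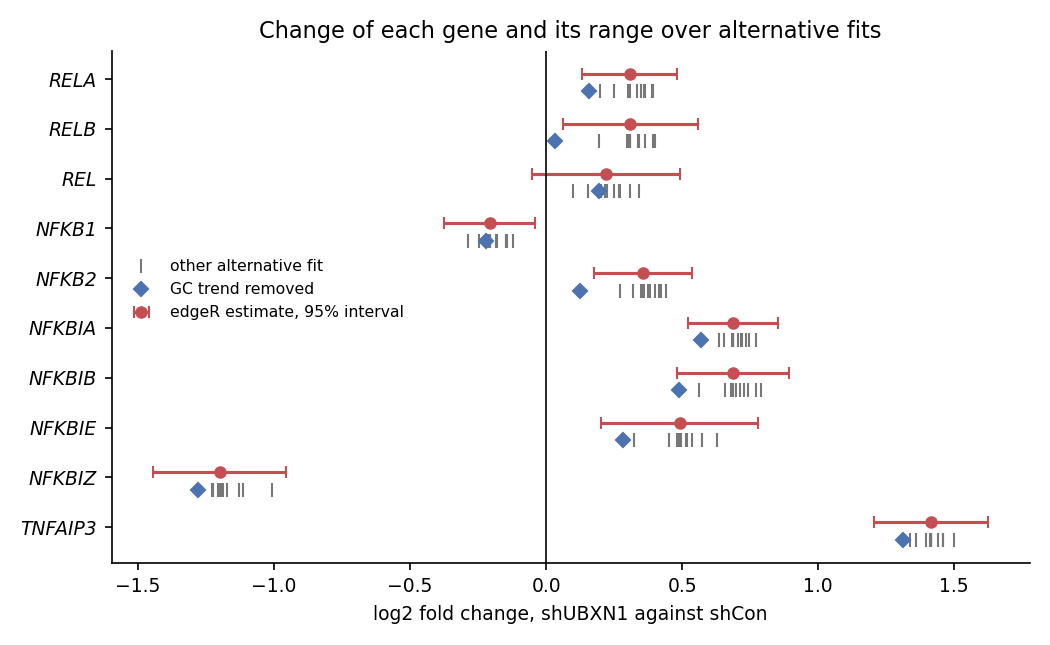
Log2 fold change of each gene in shUBXN1 against shCon with its 95% interval (red, edgeR) and, beneath it, the value after removal of the GC trend (blue) and in the other alternative fits (grey ticks), which include each library left out in turn but not the block combined with GC removal. NFKBIA, NFKBIB, TNFAIP3 and NFKBIZ keep their distance from 0 in every fit. RELB drops to 0.032 when the GC trend is removed, a fit whose median over all genes is -0.081.

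NFKBIA, NFKBIB and NFKBIE encode IκBα, IκBβ and IκBε, the inhibitors that retain dimers in the cytoplasm. NFKBIA (ENSG00000100906, chromosome 14, 35401079 to 35404749, minus strand), a rapid NF-κB target with a κB match at -81, was at 44 and 46.1 CPM in shCon and at 70.8 and 74.4 CPM in shUBXN1. The lowest knockdown library exceeded the highest control by more than the spread within either group. Its log2 fold change was 0.69 (95% interval 0.52 to 0.85, edgeR adjusted p = 3.46e-06) and stayed between 0.57 and 0.77 in all 15 alternative fits. Of all genes tested, 19.3% had a higher value.

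NFKBIB (chromosome 19, 38899700 to 38908893, plus strand) rose by a similar amount. It was at 23.6 and 24.5 CPM in shCon and at 35.8 and 41.6 CPM in shUBXN1, and the spread was wider in shUBXN1. The log2 fold change was 0.69 (95% interval 0.48 to 0.89, edgeR adjusted p = 3.23e-05), and 19.3% of all genes tested had a higher value. It lay between 0.48 and 0.79 in the alternative fits, all past the threshold. SIRT2 on the opposite strand shares 1.72% of the exon bases of NFKBIB. NFKBIE (chromosome 6, 44258166 to 44265788, minus strand) was the least abundant of the 3, at 10.7 and 11.2 CPM in shCon and 13.8 and 17.0 CPM in shUBXN1. Its log2 fold change was 0.49 (95% interval 0.20 to 0.78, edgeR adjusted p = 0.00627), and 25.5% of all genes tested had a higher value. The call was lost without the second shUBXN1 library (0.32, edgeR adjusted p = 0.0535) and after removal of the GC trend (0.28, edgeR adjusted p = 0.0930).

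TNFAIP3 (ENSG00000118503, chromosome 6, 137867214 to 137883314, plus strand) encodes A20, a ubiquitin-editing enzyme that shuts off signaling from TNF and Toll-like receptors upstream of IKK. It had 371 and 309 counts in shCon and 891 and 848 in shUBXN1, or 13.9 and 13.2 CPM against 36.0 and 36.2 CPM. This was the largest rise among the 10 genes, with a log2 fold change of 1.41 (95% interval 1.21 to 1.62, edgeR adjusted p = 3.12e-08), and 7.72% of all genes tested had a larger one. It remained between 1.31 and 1.5 in the 15 alternative fits. The antisense lncRNA gene WAKMAR2, which shares 1.47% of the exon bases, held 3 to 7 counts per library.

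NFKBIZ (ENSG00000144802, chromosome 3, 101827991 to 101861022, plus strand) encodes IκBζ, an atypical nuclear IκB that is itself induced by NF-κB and acts as a coactivator on a subset of its targets. It had 603 and 522 counts in shCon and 245 and 225 in shUBXN1, or 22.6 and 22.2 CPM against 9.90 and 9.61 CPM. NFKBIZ thus fell by 1.2 on the log2 scale (95% interval -1.44 to -0.96, edgeR adjusted p = 6.82e-07), and 4.25% of all genes tested had a lower value. It stayed between -1.28 and -1.01 in the alternative fits. The neighbouring gene NXPE3 shares 3.29% of its exon bases on the same strand and had 789 and 676 counts in shCon and 1621 and 1583 in shUBXN1, the opposite direction. NFKBIA, NFKBIB, TNFAIP3 and NFKBIZ were the 4 genes whose calls held in all 15 alternative fits.

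The balance between the mRNAs of inhibitors and subunits was examined as ratios of TPM within each library. Protein levels and NF-κB activity were not measured in these data. NFKBIA per RELA was 0.828 and 0.802 in shCon and 1.10 and 1.02 in shUBXN1, and NFKBIB per RELA was 0.580 and 0.557 against 0.730 and 0.746. TNFAIP3 per RELA was 0.0921 and 0.0805 against 0.198 and 0.175. NFKBIE per RELA differed less, at 0.121 and 0.118 against 0.13 and 0.141. For each of these 4 ratios the shUBXN1 libraries lay above the shCon libraries. Chosen after the values were seen, the summed TPM of NFKBIA, NFKBIB and NFKBIE divided by that of the 5 subunits was 0.742 and 0.724 in shCon and 1.01 and 1.01 in shUBXN1. With 2 libraries per group, an exact two-sided permutation test cannot give a p below 0.333, which is the value of each of these ratios. Their absolute values, including which of them exceed 1, depend on the deposited gene lengths, which are the same in every library.

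Within the subunits, RELA made up 48.5% and 49% of their summed TPM in shCon and 51.4% and 52.9% in shUBXN1. The share of NFKB1 went from 23.7% and 23.3% to 17.7% and 17.5%, and that of NFKB2 from 16.9% and 17.7% to 19.8% and 18.4%. Accordingly, NFKB2 per NFKB1 was 0.713 and 0.758 in shCon and 1.12 and 1.06 in shUBXN1 (exact permutation p = 0.333, the smallest possible). By contrast, RELB per RELA was 0.190 and 0.176 in shCon and 0.183 and 0.184 in shUBXN1, so the groups overlapped (exact permutation p = 1). REL held 1.39% to 1.74% of the sum in the 4 libraries, and its groups overlapped as well.

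**Figure D4:**
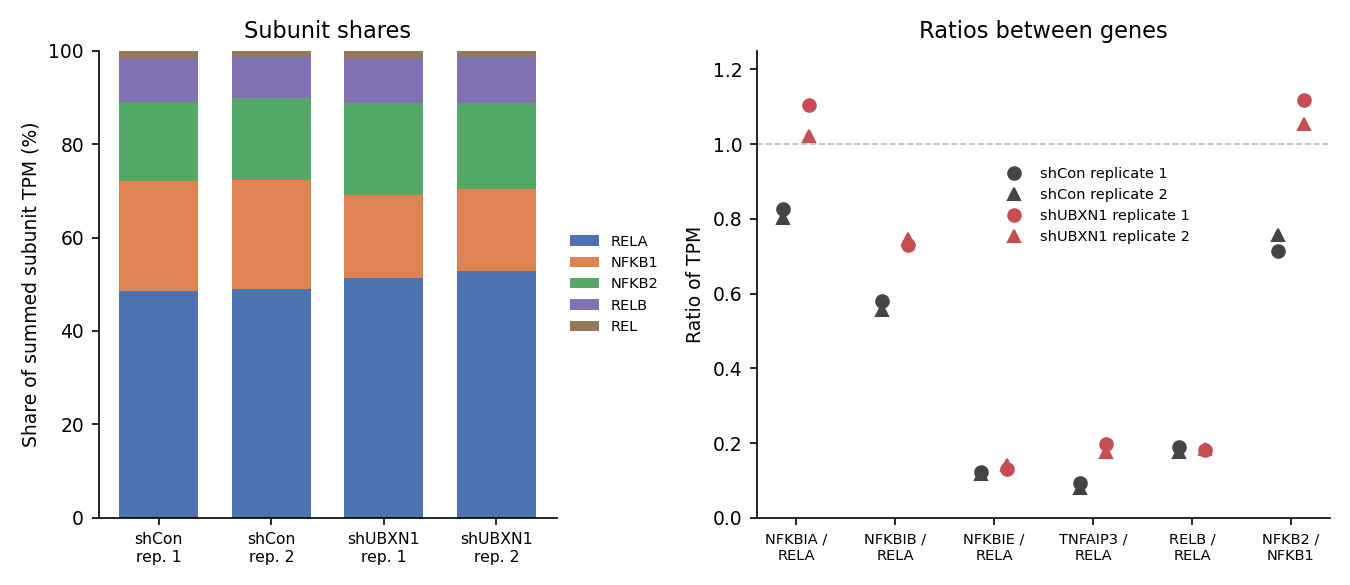
Left, share of each subunit in the summed TPM of the 5 subunits in each library (stacked bars, percent). Right, ratios of TPM between genes in each library (shCon dark, shUBXN1 red), with a dashed line at 1, where NFKBIA per RELA and NFKB2 per NFKB1 pass from below 1 in shCon to above 1 in shUBXN1 while RELB per RELA stays between 0.176 and 0.190.

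Other genes of the pathway were described with 4 hand-written lists, whose counts stand against the 28.0% of all genes tested that were called higher and the 28.2% called lower, with a median log2 fold change of 0.016. Among 16 other IκB proteins and nuclear regulators, 3 were higher and 7 were lower at an adjusted p under 0.05, with a median log2 fold change of -0.18. NFKBID (0.92) and BCL3 (0.64), both atypical nuclear IκB proteins like NFKBIZ, were the largest rises of this list. With the GC trend removed BCL3 was at 0.33 (edgeR adjusted p = 0.00727). COMMD1 (-0.66), which promotes RELA turnover, was among the largest falls, from 6.0 and 7.07 CPM in shCon to 3.84 and 4.44 CPM in shUBXN1. BCL3 was at 49.6 and 50.7 CPM in shCon and at 76.2 and 80.5 CPM in shUBXN1, and NFKBID at 6.08 and 6.64 against 12.4 and 11.7 CPM. Without the second shCon library fewer genes of this list were called lower, and so were fewer of all genes tested. COMMD1 was then at -0.55 and not past the threshold.

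Of 18 A20 partners and ubiquitin-editing genes, 4 were higher and 6 lower, shares near the 28.0% and 28.2% of all genes and so no result about this group, and the median was -0.081. The deubiquitinase CYLD, which like A20 limits NF-κB activation, rose from 33.8 and 34.4 CPM to 69.7 and 76.2 CPM (log2 fold change 1.10), and USP11 rose by 0.79. RNF11 (-1.54), a component of the A20 editing complex, and the A20-binding protein gene TNIP2 (-1.12) were the largest falls. RNF11 was at 39.8 and 42.4 CPM in shCon and at 14.0 and 14.3 CPM in shUBXN1, and TNIP2 at 51.9 and 53.2 against 25.0 and 23.3 CPM. The number called higher was 7 with total count scaling, where 5324 of all genes tested were called higher, against 4727 in the reported fit. It was larger without the first shUBXN1 library and smaller without the second shCon library, while fewer of all genes tested were called higher in both fits.

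Of 26 upstream kinases and adaptors, 9 were higher and 8 lower, which is likewise near the shares of all genes (28.0% and 28.2%), and the median was 0.037. BIRC3 (1.89), which encodes the ubiquitin ligase cIAP2, and TRAF1 (1.36), its adaptor partner and a known NF-κB target, had the largest rises, and TRAF1 was at 0.90 in limma on log2(TPM + 1). TAB1 (-1.26), a TAK1-binding protein gene, and IKBKG (-0.94), which encodes the IKK scaffold NEMO, had the largest falls. IKBKG was at 125 and 126 CPM in shCon and at 61.9 and 69.0 CPM in shUBXN1, a value that is uncertain because a near-identical pseudogene can take some of its reads. Without the second shCon library fewer genes of this list were called lower, and so were fewer of all genes tested.

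Of 33 NF-κB target genes outside the 10, 32 were matched by symbol and 25 passed the filter on low counts. Of these 25, 13 were higher and 5 lower in shUBXN1, where 28.0% and 28.2% of all genes were, with a median log2 fold change of 0.57, which was the same with the 1 gene at or under 3 counts in a group set to its bound. The filter can keep a gene through the group where it is high, so these counts are no evidence of a direction for the list. VCAM1 (3.12), an adhesion molecule gene, and the cytokine gene LIF (1.62) had the largest rises among targets whose average log2 CPM exceeded 2, and EGR1 (-2.90), an immediate early factor gene, and SDC4 (-0.85) the largest falls among them. Less abundant targets with large changes are not named. VCAM1 was at 2.89 and 2.68 CPM in shCon and at 25.5 and 23.1 CPM in shUBXN1, and EGR1 at 37.3 and 48.7 against 4.97 and 6.54 CPM. Without the first shCon library fewer genes of this list were called lower, and so were fewer of all genes tested.

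**Figure D5:**
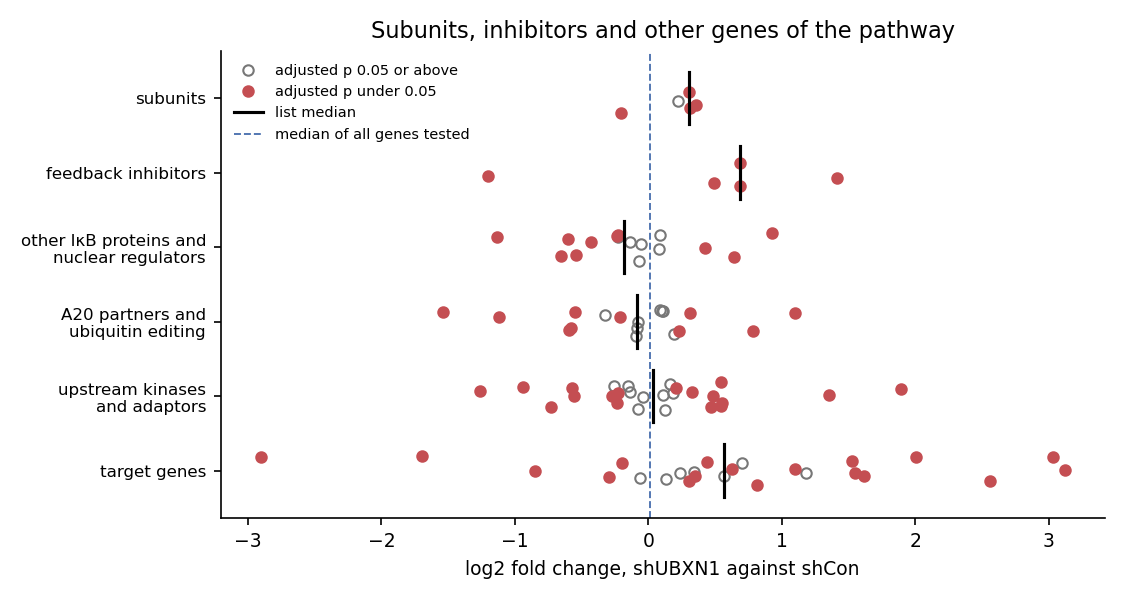
Log2 fold change in shUBXN1 against shCon of the subunits, the inhibitors and the genes of 4 pathway lists that were tested (filled points, adjusted p under 0.05 in edgeR), with each list's median (black) and that of all genes tested (dashed, 0.016). The medians are 0.69 for the inhibitors, 0.57 for the target genes, 0.31 for the subunits and 0.037 for the kinases and adaptors. Those of the A20 partners (-0.081) and of the other IκB proteins and nuclear regulators (-0.18) lie below 0. The filter on low counts can keep a target gene through the group where it is high.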

How the data were processed

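Libraries were sequenced in paired ends and, by the paper's methods, aligned to GRCh38 with Hisat2, whereas the submitters' processing notes list GRCh37, HISAT2 2.0.4 and StringTie 1.3.0. The authors deposited expected counts per Ensembl gene, given to 2 decimals and not normalized, with a gene length; the counting tool, annotation release and use of strand are not given in the sources used here. Symbols matched 61369 of 61541 IDs (99.7%), and gene positions are from GENCODE release 44 on GRCh38.

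After rounding, low-count genes were removed by filterByExpr, TMM factors were computed and groups were compared by the quasi-likelihood test of edgeR 4.0.16 (R 4.3.3), without a block. Calls used a Benjamini-Hochberg adjusted p under 0.05 over all 16863 genes tested. Standard errors are the log2 fold change over the square root of F, and intervals (95%) use the test's degrees of freedom. CPM are TMM-scaled and TPM are not, so folds on these scales differ. Intervals and p-values rest on 2 residual degrees of freedom per gene plus information shared across genes. Replicate libraries differed by 3.75 (shCon) and 8.34 (shUBXN1) in chi-square per degree of freedom, so none was a copy. Alternatives were DESeq2 1.42.0, limma-voom and limma on log2(TPM + 1) and log2(TPM + 0.1) with limma 3.58.1, total count scaling, other filters, removal of the trend on GC content, a replicate block and leaving out each library. The GC trend was fitted per library on counts scaled by library totals and removed on top of the TMM factors. That fit therefore also shifts all genes. Unrounded counts and canonical transcript lengths were added after the data were seen.

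The genes and lists were chosen with earlier results of these data known. The text names the 10 genes, UBXN1 and, per list, the 2 largest rises and the 2 largest falls, taken from genes past the threshold whose libraries did not overlap between groups and whose average log2 CPM exceeded 2. Of the genes this rule selects, 1 is not reported here. GC content is that of each gene's longest annotated transcript.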

Additional observations from a re-analysis of the deposited data

How the results depend on the processing

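Of the 10 genes, 4 (NFKBIA, NFKBIB, NFKBIZ and TNFAIP3) passed the threshold in all 15 alternative fits, 1 (REL) in none and 5 in some. The number called higher, 7 in the reported fit, was 3 after removal of the GC trend and 3 with that and a replicate block. Of all genes tested, 3831 and 3909 were called higher in these fits, against 4727 in the reported fit. The number was 1 at a fold change of 2 with an unadjusted p and 3 at a fold change of 1.5, where 11.8% and 18.0% of all genes passed. The number called lower, 2 in the reported fit, was 1 with total count scaling, at least 10 counts in every library, DESeq2 and both limma fits on TPM. It was also 1 with the GC trend removed, with or without the block, and at both fold change thresholds. In these fits 3969 to 5518 of all genes tested were called lower, against 4751 in the reported fit. At fold changes of 2 and 1.5, 6.09% and 13.9% of all genes passed as lower. After removal of the GC trend, without and with the replicate block, log2 fold changes were 0.16 and 0.15 for RELA, 0.032 and 0.026 for RELB, 0.12 and 0.12 for NFKB2, 0.28 and 0.27 for NFKBIE and -0.22 and -0.22 for NFKB1, none past the threshold, and the cause of the GC trend was not tested. NFKB1 also missed the threshold with total count scaling (-0.12), at least 10 counts in every library (-0.18), DESeq2 (-0.21), limma on log2(TPM + 1) (-0.14) and limma on log2(TPM + 0.1) (-0.15), and RELB did in DESeq2 (0.31). With each library left out, values ranged from 0.20 to 0.39 for RELA, 0.20 to 0.40 for RELB, -0.29 to -0.15 for NFKB1, 0.27 to 0.42 for NFKB2 and 0.32 to 0.63 for NFKBIE. The difference of the REL share then ranged from -0.158 to 0.190 percentage points and that of RELB per RELA from -0.00652 to 0.00696, so neither has a direction. Among the lists, A20 partners called higher numbered 7 with total count scaling and in both limma fits on TPM and 2 to 7 with a library left out, and kinases and adaptors called lower numbered 5 in both limma fits on TPM and 5 to 9 with a library left out. With a library left out, 4 to 8 nuclear regulators and 3 to 5 target genes were called lower. Over all genes tested, the median change (log2) was 0.016 as reported, 0.10 with total count scaling and -0.081 with the GC trend removed. The GC fit corrects the overall difference between libraries a second time, so part of its lower values is a shift of all genes.

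The replicate numbers are not stated to mark a shared batch, and the deviations of same-numbered libraries correlated at 0.0635 across genes. With the replicate block alone 5000 genes were higher and 5023 lower, against 4727 and 4751, and the calls of the 10 genes still numbered 7 and 2.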

Other observations

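Over all genes tested whose symbol had a promoter window, 660 of the 1979 with a κB match (33.4%) were called higher in shUBXN1, against 27.1% of the 9697 without one. The median log2 fold changes were 0.041 and -0.043, the transcripts of the first set had a slightly higher median GC content (49.9% against 47.6%), and after removal of the GC trend the shares were 26.4% and 21.6%. These shares are descriptions without a test.

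The divergent and neighbouring transcripts of the 10 genes were also read out. RELA-DT, on the strand opposite RELA, had 61 and 32 counts in shCon and 87 and 74 in shUBXN1. SIRT2, antisense to NFKBIB, had 834 and 765 counts in shCon and 875 and 893 in shUBXN1.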
